A study of Drosophila melanogaster with 6 samples.

Results

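In eggs of Drosophila melanogaster, 10 genes of the 13943 in the tables had been chosen on the gene length listed beside their expression values, which differed between eggs laid by mothers expressing MEK F53S and eggs laid by mothers expressing wild-type MEK. They were CG5455, brwl, Oseg1, Epg5, Pex3, kuz, dpr6, nito, heph and app, and their length values in these same 6 libraries selected them, so those differences are given as a description and without a test. The mutant eggs came from MTD>MEK_F53S females, in which the germline driver MTD-GAL4 directs overexpression of MEK F53S, a gain-of-function mutant of the kinase MEK of the kind found in RASopathies. The control eggs came from MTD>MEK females, in which the same driver overexpresses wild-type MEK (fly Dsor1) from a construct inserted at the same genomic site. Both groups therefore carried the driver and an extra MEK gene, and each construct was represented by 1 fly line, so that the MEK variant and any other difference between the lines cannot be told apart. All females were mated to sterile males, and unfertilized eggs were collected in pools at 0 to 30 min, with 3 biological replicates per genotype.

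Most fly genes are transcribed into several RNAs that differ in their promoter and first exon, in their splice sites or in the position of the poly(A) tail. A freshly laid, unfertilized egg is taken to be transcriptionally silent, and the mRNA isoforms it holds were made mainly by the nurse cells of the ovary and loaded before laying. Different first exons and 3′ ends often leave the protein unchanged and alter the untranslated regions, through which stored maternal mRNAs are localized, translated and degraded. A gene-level length that is weighted by isoform abundance moves when the isoform mix moves, and this is the sense in which the listed length was read.

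The libraries held 37224814 to 48485330 estimated counts with MEK F53S and 37342085 to 48756311 with wild-type MEK. Germline mRNAs (4 of 5 listed markers were in the tables) summed to 1358.5 to 1857 TPM (transcript abundance per length, scaled to a fixed library total) with MEK F53S and 1522 to 1869 TPM with wild-type MEK. The follicle cell and eggshell markers were at or near 0, with sums of at most 2.42 TPM with MEK F53S and 0.775 TPM with wild-type MEK. The 8 early zygotic markers of fertilized embryos summed to 4.09 to 47.1 TPM with MEK F53S, where 3 of them were at 0 in every library, and to at most 0.335 TPM with wild-type MEK, where 6 were at 0. They therefore moved with the genotype, as did every difference described here, and their part in the results was not tested. In pooled eggs, fewer eggs with a transcript and less of it per egg cannot be told apart.

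The listed length proved not to be the mean length of the isoforms. The tables also list an effective length, the adjusted length on which TPM rests, which can exceed the transcript. In wild-type MEK replicate 1, for example, it was 3757.6 bases for CG5455, whose longer transcript has 2890. Within each library the ratio of estimated count to the product of TPM and listed effective length was examined. It was a single constant for 2383 genes with 1 annotated transcript, to within 0.000818%. In genes with several transcripts the effective length implied by this constant exceeded the listed one by a factor that lay between 1 and the number of transcripts in 4362 of 4366 tested genes. The listed length itself lay below the shortest annotated transcript in at least 1 library for 4135 of the 4296 tested genes (96.3%) in which it varied between libraries. Multiplying the listed length by this factor brought it within the annotated range in all 6 libraries for 4360 of these 4366 genes (99.9%). The product is called the rescaled length here. Over all tested genes the implied effective length had a median log2 ratio of 0.19, MEK F53S over wild-type MEK. TPM rests on these lengths, and their part in the TPM differences below was not tested.

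For genes with 2 transcripts the factor could be read exactly. It equalled 1 plus the share of one of the transcripts, since that share and the annotated lengths returned the rescaled length within 1 base in all 6 libraries for 1993 of 1996 such genes. A further 117 of the 2113 tested genes with 2 annotated transcripts had no factor in at least 1 library and were left out. In 42 of these 1993 the transcripts were too alike in length to say which of the pair the share belonged to, and none of those was among the genes described here. No label or file header describes the factor, and its origin was not tested. Counts and TPM do not contain it. The 10 genes thus fell into 5 with 2 transcripts, for which the isoform shares follow, and 5 with 3 to 25 transcripts, for which mainly the direction of the rescaled length can be given.

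**Figure D1:**
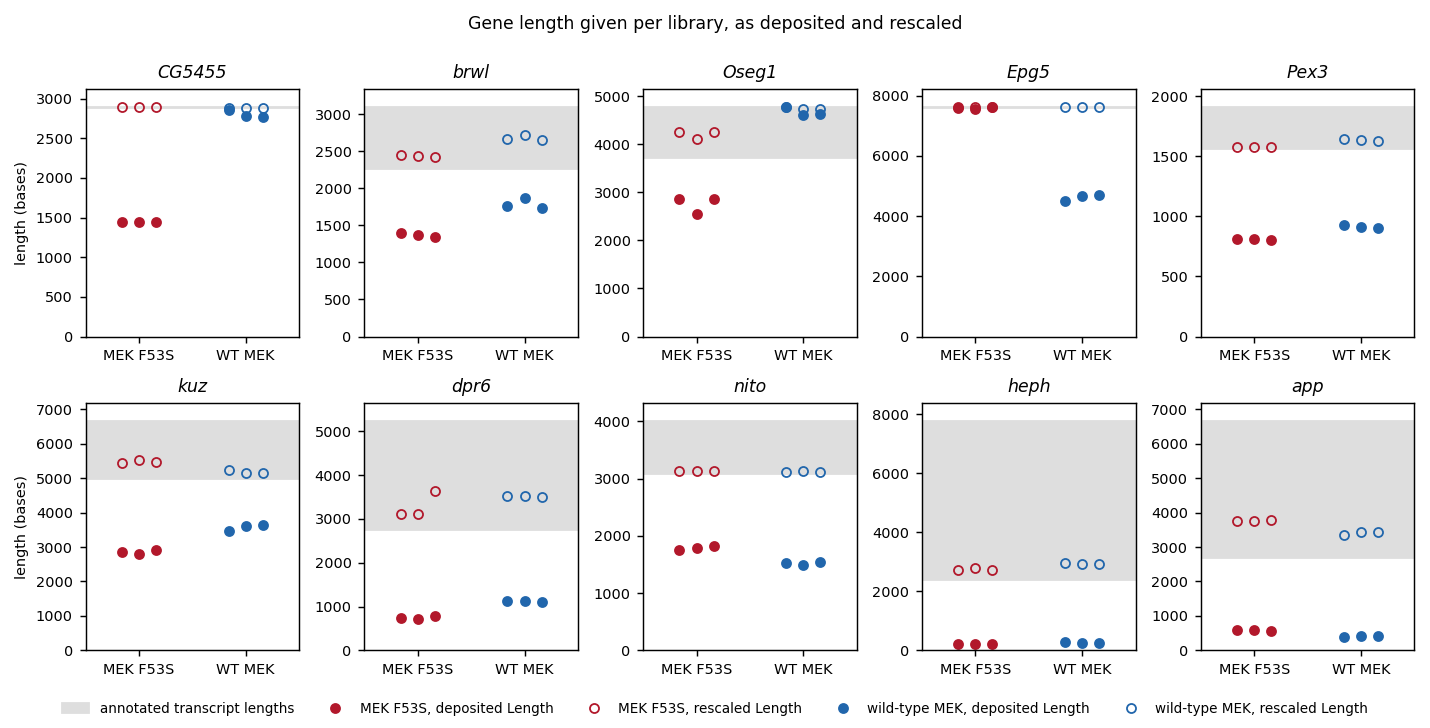
Gene length in bases for each of the 10 genes, by library (3 points per group, MEK F53S left of wild-type MEK); filled points are the listed length, open points the rescaled length, and grey bands span the annotated transcripts. The filled points of all 10 genes separate the groups but lie below the band in most libraries, whereas every open point lies within it.

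Among the genes with 2 transcripts, CG5455, brwl and Oseg1 differed in the 5′ end of their mRNA, Epg5 in an internal splice site and Pex3 mainly in the 3′ end. The shares of all 5 were separated between the groups. Over the 1993 genes with 2 transcripts and readable shares, 13.2% had shares that did not overlap between the groups by more than 0.1 percentage points, and the median absolute difference of the group means was 1.99 points, with a 95th percentile of 33.3 points. These figures are given as background only, since the 5 genes were chosen for this difference.

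CG5455 (FBgn0039430, chromosome 3R, 26461527 to 26470008, + strand, BDGP6 annotation) has transcripts CG5455-RA of 2890 bases and CG5455-RB of 2882 bases. Their first exons lie at 26461527 to 26461646 (120 bases, RA) and at 26465540 to 26465651 (112 bases, RB), both in the 5′ UTR, and all other exons and the 2064-base coding sequence are shared. RA made up 99.9985%, 100% and 99.9995% of CG5455 transcripts in the 3 MEK F53S libraries, against 0.987%, 3.48% and 4.22% in the 3 wild-type MEK libraries. The mRNA that starts at the upstream exon was thus nearly the whole of CG5455 in one genotype and a trace in the other. This was the largest difference among the 1993 genes with readable shares, at 97.1 points.

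CG5455 was also more abundant, at 15.1, 18.1 and 17.3 TPM in MEK F53S eggs, against 4.54, 4.13 and 4.13 TPM in wild-type MEK eggs. Split by isoform, RA stood at 15.1, 18.1 and 17.3 TPM with MEK F53S and at 0.0448, 0.144 and 0.175 TPM with wild-type MEK. RB stood below 0.001 TPM in every MEK F53S library and at 4.49, 3.99 and 3.96 TPM with wild-type MEK. Neither isoform overlapped between the groups, and they differed in opposite directions. The listed length was 1445 bases in all 3 MEK F53S libraries and averaged 2801.7 ± 46.3 bases (SD, n = 3) with wild-type MEK, a ratio of 0.516, although the isoforms differ by only 8 bases. The rescaled length was 2890 bases with MEK F53S and 2882 bases with wild-type MEK, so that its direction was the reverse of the listed one.

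brwl (FBgn0032130, chromosome 2L, 9568890 to 9573572, + strand) has an upstream first exon with 309 bases of its own in brwl-RA (9568890 to 9569198) and a downstream one with 1144 bases of its own in brwl-RB (9570271 to 9571414), both within the 5′ UTR, and 1 coding sequence of 1305 bases. RA made up 76.1%, 78.4% and 79.9% of brwl transcripts with MEK F53S, against 51.2%, 45.2% and 53.2% with wild-type MEK. The means were 78.1% ± 1.90 with MEK F53S and 49.8% ± 4.18 with wild-type MEK (SD, n = 3 each), a difference of 28.3 points. The isoform levels show where this came from. RA was at 28.5, 28.7 and 30.1 TPM with MEK F53S and at 24.7, 24.5 and 30.9 TPM with wild-type MEK, so the groups overlapped. RB was at 8.94, 7.89 and 7.57 TPM with MEK F53S and at 23.6, 29.8 and 27.2 TPM with wild-type MEK, and these groups were apart. The difference in brwl thus lay in the isoform with the long 5′ UTR.

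Oseg1 (FBgn0265102, chromosome 3L, 8407268 to 8412825, − strand) encodes a subunit of the intraflagellar transport complex that returns cargo from the tip of a cilium, a structure used by sensory neurons and sperm. Its transcript Oseg1-RB (4766 bases) carries 1052 bases of 5′ UTR that Oseg1-RA (3714 bases) lacks, and both share the coding sequence of 3507 bases. RA made up 48.8%, 61.5% and 48.6% of Oseg1 transcripts with MEK F53S, against 0.0001%, 2.88% and 2.23% with wild-type MEK. The short form was therefore around an even share in one group and at most a trace in the other, a difference of 51.3 points. RB was at 10.03, 13.7 and 13.2 TPM with MEK F53S and at 32.2, 21.2 and 21.9 TPM with wild-type MEK, whereas RA was at 9.54, 21.9 and 12.5 TPM with MEK F53S and at 0.0, 0.627 and 0.499 TPM with wild-type MEK. Summed over both isoforms, Oseg1 was at 19.6, 35.6 and 25.6 TPM with MEK F53S and at 32.2, 21.8 and 22.4 TPM with wild-type MEK, and the groups overlapped.

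The Oseg1 shares rest on the 1052 bases that RA lacks, because RA has no base of its own. Of these, 695 are also exon of Exo70, the gene on the opposite strand, which encodes an exocyst subunit. CG13667, also on the opposite strand, shares 87 bases with both isoforms and none of the 1052. The libraries were directional, and the sources used here do not say whether counting used strand. The estimated counts were not whole numbers, as in wild-type MEK replicate 1 with 4146.31 for Oseg1 and 1911.69 for Exo70. In every library the counts of Oseg1, Exo70 and CG13667 together made a whole number, to rounding. Some reads were thus divided between Oseg1 and genes on the opposite strand, and how many is not given. Exo70 was at 32.2, 46.8 and 36.4 TPM with MEK F53S and at 36.9, 16.1 and 16.3 TPM with wild-type MEK. Wild-type MEK replicates 2 and 3 were low for Exo70 and replicate 1 was at the level of the MEK F53S libraries. The share of Oseg1-RA was lowest in replicate 1, and the part of Exo70 reads in the Oseg1 shares was not tested.

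Epg5 (FBgn0038651, chromosome 3R, 18750436 to 18758873, − strand) encodes a tether that, in worms and mammals, joins autophagosomes to late endosomes and lysosomes. Epg5-RC (7607 bases) and Epg5-RD (7604 bases) differ by 3 coding bases at 18758690 to 18758692, where a neighbouring splice site is used. RC made up 99.7%, 99.2% and 100% of Epg5 transcripts with MEK F53S, against 31.2%, 36.6% and 38.6% with wild-type MEK. The isoform without the 3 bases was the majority form with wild-type MEK and was at or near 0 with MEK F53S, a difference of 64.1 points that ranked 14th of the 1993 genes. RD was at 0.0374, 0.182 and 0.0 TPM with MEK F53S and at 11.4, 6.74 and 6.66 TPM with wild-type MEK. RC was at 12.6, 21.3 and 11.5 TPM with MEK F53S and at 5.19, 3.89 and 4.19 TPM with wild-type MEK. These opposite differences went with a gene total that overlapped between the groups, at 12.6, 21.5 and 11.5 TPM with MEK F53S and at 16.6, 10.6 and 10.9 TPM with wild-type MEK. The listed length was higher by 63.9% in the mean, at 7578 ± 32.3 bases with MEK F53S, against 4624 ± 107 bases with wild-type MEK (SD, n = 3 each), for isoforms that differ by 3 bases. With so short a difference, the assignment of reads rests on those that cross this one splice junction.

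Pex3 (FBgn0036484, chromosome 3L, 15144355 to 15146379, + strand) encodes the membrane receptor with which peroxisomal membrane proteins are inserted. Pex3-RB (1906 bases) extends the 3′ UTR of Pex3-RA (1559 bases) by 333 bases (15146047 to 15146379) and its 5′ UTR by 14 bases, with the same coding sequence of 1155 bases. RA made up 94.6%, 94.3% and 95.7% of Pex3 transcripts with MEK F53S, against 76.8%, 78.7% and 80.0% with wild-type MEK. The means were 94.9% ± 0.767 with MEK F53S and 78.5% ± 1.61 with wild-type MEK (SD, n = 3 each), a difference of 16.4 points. The long form RB was at 13.2, 15.1 and 11.4 TPM with MEK F53S and at 42.4, 48.8 and 54.1 TPM with wild-type MEK. RA was at 231, 248 and 255 TPM with MEK F53S and at 140.5, 180.1 and 217 TPM with wild-type MEK. On TPM neither isoform overlapped, while the total Pex3 level did, at 244, 263 and 267 TPM with MEK F53S and at 183, 229 and 271 TPM with wild-type MEK. The log2 fold change of Pex3 was -0.05 on estimated counts and 0.20 on TPM with a pseudocount of 1. The separation of RA is therefore given for the TPM scale only.

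**Figure D2:**
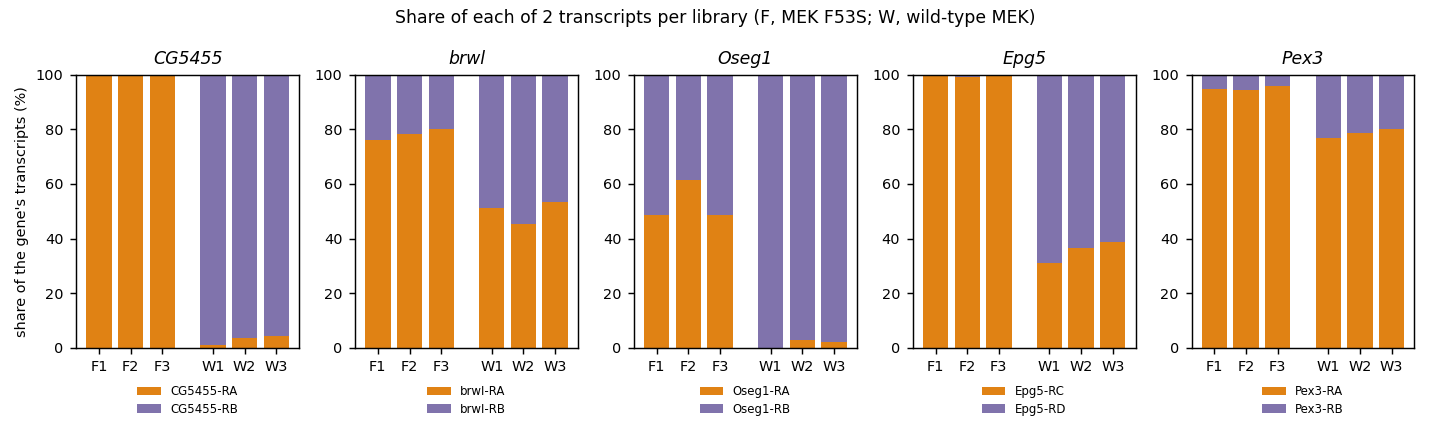
Share of each of 2 transcripts in percent of the gene's transcripts, 1 bar per library, for the 5 genes with 2 annotated transcripts. The transcript drawn at the bottom fills the whole bar for CG5455 with MEK F53S (F) and at most 4.22% of it with wild-type MEK (W).

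**Figure D3:**
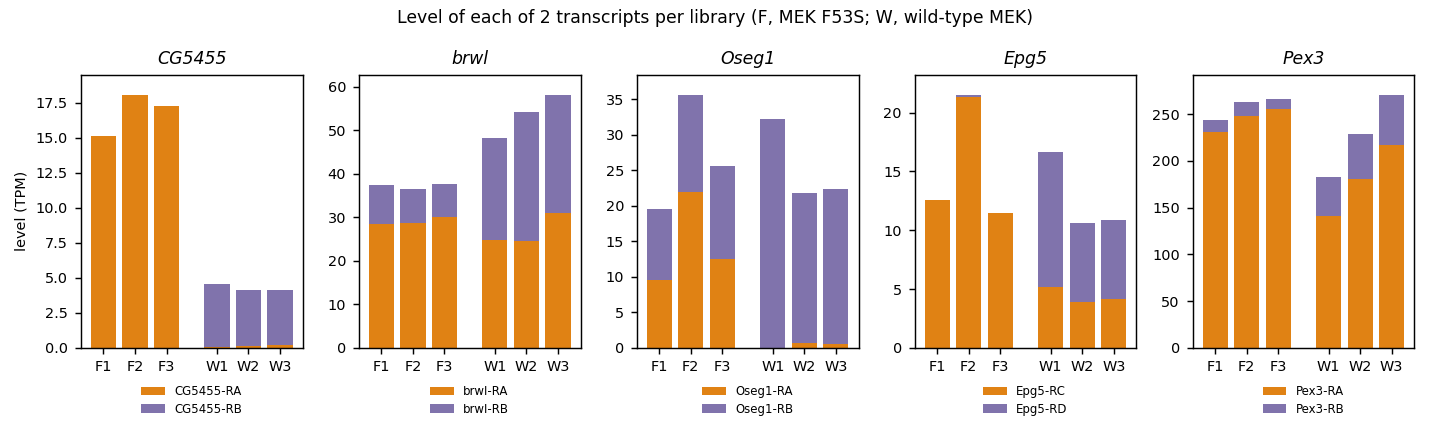
The same transcripts on the scale of TPM, with bars that start at 0, 1 per library (F, MEK F53S; W, wild-type MEK). In Epg5, Oseg1 and Pex3 the bar heights of the groups overlap while the colours differ, and in brwl the upper part, brwl-RB, is the one that differs.

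**Figure D4:**
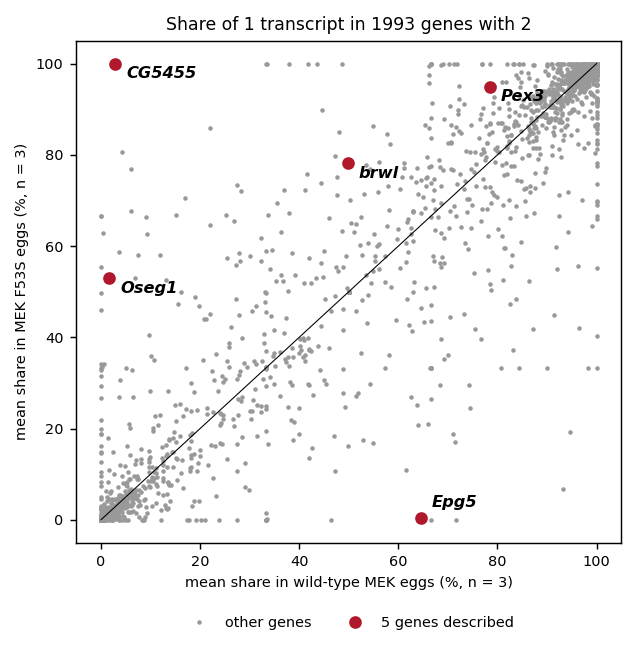
Mean share of 1 transcript over 3 MEK F53S libraries (vertical axis, percent) against the mean over 3 wild-type MEK libraries (horizontal axis, percent) for 1993 genes with 2 transcripts; the line marks equal shares. CG5455 lies farthest from the line, and Epg5 appears below it because the plotted share is that of Epg5-RD.

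The transcript with the higher share in MEK F53S eggs was the shorter one in brwl, Oseg1 and Pex3 and the longer one in CG5455 and Epg5. The coding length was the same for both transcripts in 4 of these 5 genes, against 69.5% of the 1993 genes and 72.7% of the 264 whose shares did not overlap. By the gap between the groups, CG5455 ranked 1st, Epg5 3rd, Oseg1 5th, brwl 17th and Pex3 35th. Among the 5 highest ranks the other two genes, which were named after their values were seen, were CG7685 at the 2nd place and spartin at the 4th. CG7685-RA averaged 6.75% of its gene with MEK F53S and 93.3% with wild-type MEK, and spartin-RA averaged 40.3% with MEK F53S and 99.99% with wild-type MEK.

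In the 5 genes with more transcripts, the factor again did not overlap between the groups, but which isoforms differed could be narrowed only in part. kuz (FBgn0259984, chromosome 2L, 13550139 to 13639411, + strand) encodes a membrane metalloprotease of the ADAM family that cleaves Notch, and has 5 transcripts of 4976 to 6651 bases with 4 coding lengths. Its listed length was 2860, 2796 and 2901 bases with MEK F53S, against 3458, 3612 and 3646 bases with wild-type MEK. The rescaled length went the other way, at 5451, 5520 and 5466 bases with MEK F53S and at 5223, 5157 and 5143 bases with wild-type MEK, so that the mean kuz isoform was longer by 5.89% with MEK F53S. The groups did not overlap on either scale. The 2 longest isoforms, kuz-RB and kuz-RC, extend the 3′ UTR to 13639411.

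app (FBgn0260941, chromosome 3L, 12206238 to 12266841, − strand) encodes a palmitoyltransferase that acts in Fat signalling on the localization of Dachs at the cell membrane. It has 10 transcripts of 2679 to 6652 bases with 5 coding lengths. The rescaled length of app was 3750, 3755 and 3784 bases with MEK F53S, against 3350, 3425 and 3432 bases with wild-type MEK, longer by 10.6%. The listed length was higher by 39.8% and stood at 563 to 600.1 bases with MEK F53S and at 394 to 430 bases with wild-type MEK, below the shortest app transcript in all 6 libraries.

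heph (FBgn0011224, chromosome 3R, 31846987 to 32015520, − strand) encodes the fly polypyrimidine tract-binding protein, which regulates splicing and, in the oocyte, the translation of oskar mRNA. With 25 transcripts of 2391 to 7770 bases it had the largest factors of the 10 genes, of 13.1 to 13.4 with MEK F53S and 10.7 to 11.1 with wild-type MEK. The rescaled length was 2741, 2806 and 2730 bases with MEK F53S, against 2951, 2945 and 2912 bases with wild-type MEK. The mean heph isoform was thus shorter with MEK F53S, at a ratio of 0.94, and the groups did not overlap. The listed values, of 204 to 214 bases with MEK F53S and 263 to 275 bases with wild-type MEK, were far below the shortest transcript.

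dpr6 (FBgn0040823, chromosome 3L, 9974651 to 10139360, + strand) encodes an immunoglobulin-domain surface protein of neurons that pairs with DIP proteins. Its 5 transcripts of 2741 to 5227 bases share the 5′ UTR of 1642 bases and differ in their last exons, with 4 coding lengths. The listed length was 748, 711 and 783 bases with MEK F53S, against 1135, 1136 and 1109 bases with wild-type MEK. The rescaled length was 3120, 3121 and 3635 bases with MEK F53S and 3520, 3516 and 3510 bases with wild-type MEK. Replicates 1 and 2 with MEK F53S were below the wild-type MEK libraries and replicate 3 was above them, so the groups overlapped. Replicate 3 had the fewest dpr6 reads, at 138 estimated counts, beside 286 and 218 in the other MEK F53S libraries and 984 to 1139 with wild-type MEK.

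nito (FBgn0027548, chromosome 2R, 7962463 to 7969805, + strand) encodes an RNA-binding protein of the Spen family that belongs to the m6A methyltransferase complex. Its 3 transcripts nito-RA (4001 bases), nito-RB (3115 bases) and nito-RC (3084 bases) share a coding sequence of 2379 bases and differ in their 3′ UTR. The rescaled length of nito was 3132, 3132 and 3127 bases with MEK F53S and 3123, 3130 and 3123 bases with wild-type MEK, and the groups overlapped. The factor did not overlap, at 1.79, 1.76 and 1.71 with MEK F53S and 2.05, 2.09 and 2.02 with wild-type MEK. With weights of 1, 2 and 3 on the transcripts, extending the 1 and 2 seen in genes with 2 transcripts, 2 of the possible orders gave shares between 0% and 100% in every library. In one, nito-RB held 59.1% to 63.0% with MEK F53S and 43.5% to 47.9% with wild-type MEK, and in the other it held 34.0% to 37.3% with MEK F53S and 49.5% to 53.2% with wild-type MEK. In the first order nito-RA held 2.55% to 3.23% with MEK F53S and 2.66% to 3.50% with wild-type MEK, which overlap, and in the other 3.53% to 4.02% with MEK F53S and 2.50% to 3.18% with wild-type MEK, which do not. In both orders RB and RC differed in opposite directions, and which of them was higher with MEK F53S is not fixed by these values. All these shares rest on the assumed weights, which were not checked in genes with 3 transcripts. Of the 474 bases that only nito-RB has, 442 are also exon of CG8726 on the opposite strand. In MEK F53S replicates 1 and 2 the estimated counts of both genes were not whole numbers. They were 17439.1 and 27748.3 for nito and 10477.9 and 12912.6 for CG8726, and both genes had whole counts in the other libraries. The part of CG8726 reads in the nito values was not tested.

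**Figure D5:**
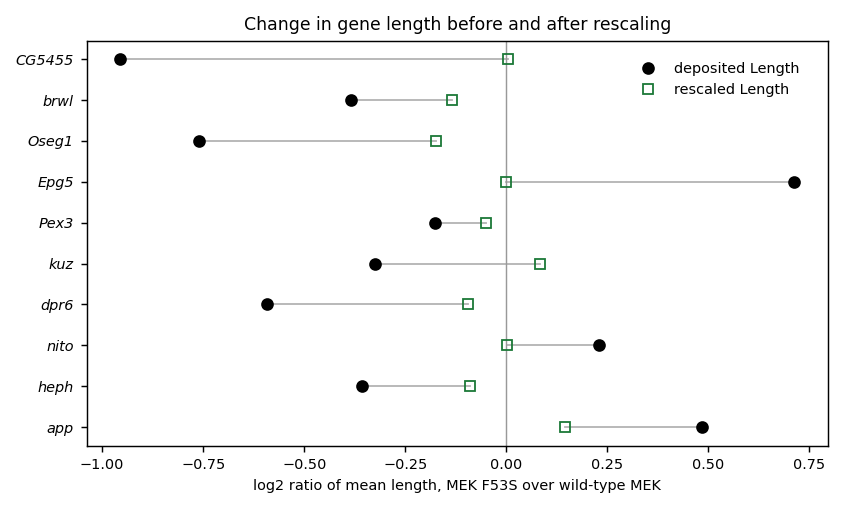
Log2 ratio of the mean length with MEK F53S over that with wild-type MEK (n = 3 each) for the 10 genes; filled circles show the listed length, open squares the rescaled length. Rescaling turned the sign for CG5455 and kuz and brought Epg5 and nito to within 0.01 of 0.

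On the listed length all 10 genes had groups that did not overlap, as did 11.3% of the 7539 tested genes, and 5.29% did so with means at least 1.1-fold apart. On the rescaled length 8 of the 10 did not overlap, dpr6 and nito being the exceptions, against 11.5% of 7105 genes with a value in every library. These backgrounds include genes with 1 transcript, whose length cannot follow an isoform mix, so among genes like the 10 the shares are higher. The 11.3% stands for 853 genes, where the listed length varied in 4296. The 11.5% stands for 819 genes, where 4366 had several transcripts. By the size of the listed change the 10 genes ranked between 68th (CG5455) and 916th (Pex3) of 7539, and so were not simply the largest changes. By the size of the rescaled change they ranked between 125th (Oseg1) and 3743rd (Epg5). The median absolute log2 ratio over the tested genes whose length varied was 0.046 on the listed scale and 0.0056 on the rescaled scale.

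The total reads of these genes were compared with edgeR's quasi-likelihood test over all 7539 genes with Benjamini-Hochberg adjustment, a measure from the same contrast that chose the genes. Of all tested genes 12.3% were called higher and 12.9% lower with MEK F53S at an adjusted p under 0.05. Of the 10 genes 1 was called higher and 5 lower, and the median log2 fold change was -0.38, beside 0.05 over all genes. Nothing is read from these counts.

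CG5455, the one called higher, had 36.7 ± 2.72 CPM (counts scaled to a fixed library size) with MEK F53S and 10.7 ± 0.260 CPM with wild-type MEK (SD, n = 3 each), a log2 fold change of 1.78 (SE 0.156, edgeR adjusted p = 0.000113). dpr6, the lowest of the 10 genes with MEK F53S though not with wild-type MEK, was at 7.04, 4.49 and 2.61 CPM with MEK F53S and 21.5, 31.0 and 31.8 CPM with wild-type MEK, a log2 fold change of -2.58 (SE 0.338, edgeR adjusted p = 0.000952). brwl had 77.1 ± 2.64 CPM with MEK F53S and 141.7 ± 14.9 CPM with wild-type MEK, a log2 fold change of -0.88 (SE 0.126, edgeR adjusted p = 0.0014). On TPM, with a pseudocount of 1, the brwl difference was -0.51, still past the threshold (limma adjusted p = 0.0323), and with the listed effective length as an offset it was -0.40 and missed it (edgeR adjusted p = 0.0753). heph had 410.4 ± 9.90 CPM with MEK F53S and 624 ± 16.5 CPM with wild-type MEK, a log2 fold change of -0.60 (SE 0.093, edgeR adjusted p = 0.00193). On TPM, with a pseudocount of 1, the heph difference was -0.24 and missed the threshold (limma adjusted p = 0.109).

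The other calls were smaller. app had 100.9 ± 6.89 CPM with MEK F53S and 139.5 ± 11.8 CPM with wild-type MEK, a log2 fold change of -0.47 (SE 0.124, edgeR adjusted p = 0.0222). kuz had 215 ± 23.4 CPM with MEK F53S and 290.6 ± 21.9 CPM with wild-type MEK, a log2 fold change of -0.43 (SE 0.120, edgeR adjusted p = 0.0274). Both calls were lost when replicate 1 or 3 of MEK F53S, or 2 or 3 of wild-type MEK, was left out, where the edgeR adjusted p was 0.0755, 0.109, 0.0926 and 0.0764 for app and 0.0979, 0.129, 0.0869 and 0.0929 for kuz. The total reads of Epg5, Oseg1, Pex3 and nito did not pass the test, with log2 fold changes of 0.22, -0.33, -0.05 and -0.05 and edgeR adjusted p of 0.556, 0.272, 0.832 and 0.777. A p above the threshold does not show equal totals. These were 3 genes with separated isoform shares and 1 with a separated factor.

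The 8 lists of genes around the textbook roles of the 10 genes were read beside them, with each list's counts set against the same 12.3% higher and 12.9% lower. Of 11 tested peroxisome biogenesis genes 1 was higher, and the median log2 fold change was 0.30. Pex2, a ubiquitin ligase subunit of the peroxisomal membrane, had 24.0 ± 3.22 CPM with MEK F53S and 16.1 ± 2.09 CPM with wild-type MEK (log2 fold change 0.58, edgeR adjusted p = 0.0408).

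Of 29 tested genes on the way from the autophagosome to the lysosome 1 was higher and 5 lower, with a median of -0.02. Vps11, a subunit of the HOPS tether, had 429 ± 46.2 CPM with MEK F53S and 892 ± 71.9 CPM with wild-type MEK (log2 fold change -1.06, edgeR adjusted p = 0.000376). lt, the Vps41 subunit of HOPS, fell by 0.69, Atg7, the activating enzyme of the ubiquitin-like conjugation, fell by 0.59 and Atg1, the initiating kinase, fell by 0.48 on the log2 scale (edgeR adjusted p = 0.00244, 0.00914 and 0.0152). Besides Epg5, the shares of Atg2 and Rab2 did not overlap.

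Of 7 tested intraflagellar transport genes none was higher and 1 was lower, with a median of -0.41. rempA, another subunit of the complex that holds Oseg1, had 2.03 ± 0.702 CPM with MEK F53S and 4.97 ± 1.97 CPM with wild-type MEK (log2 fold change -1.29, edgeR adjusted p = 0.0433). The shares of rempA did not overlap, but they rest on the few reads of a gene at this low level. Of 8 tested m6A writers and readers 1 was higher and none lower, with a median of 0.19. Mettl3, the catalytic subunit, had 17.8 ± 4.11 CPM with MEK F53S and 9.86 ± 3.23 CPM with wild-type MEK (log2 fold change 0.85, edgeR adjusted p = 0.0422).

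Of 24 tested splicing regulators 1 was higher and 4, heph among them, were lower, with a median of -0.02. Sxl, the switch gene of sex determination and a germline splicing factor, had 510.4 ± 134 CPM with MEK F53S and 247 ± 74.1 CPM with wild-type MEK (log2 fold change 1.05, edgeR adjusted p = 0.00978). sqd, an hnRNP that binds gurken mRNA, fell by 0.80, SF2, an SR protein, fell by 0.72 and mbl, the Muscleblind factor, fell by 1.98 on the log2 scale (edgeR adjusted p = 0.00165, 0.0139 and 0.0409). mbl was near the floor, at 0.726 ± 0.439 CPM with MEK F53S and 2.86 ± 0.795 CPM with wild-type MEK. Rescaled lengths did not overlap for 7 of the 24, heph, which was chosen on its length, among them. The 11.5% of all genes includes genes with 1 transcript, and nothing particular to the list is read from this count.

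Of 11 tested genes of Notch and its proteases none was higher and 5, kuz included, were lower, although the median was 0.29. N, the Notch receptor, had 304 ± 21.2 CPM with MEK F53S and 606 ± 61.9 CPM with wild-type MEK (log2 fold change -0.996, edgeR adjusted p = 0.0005). H, a corepressor adaptor, fell by 0.47, neur, a ubiquitin ligase for the Notch ligands, fell by 0.52 and Su(H), the DNA-binding factor of the pathway, fell by 0.41 on the log2 scale (edgeR adjusted p = 0.0109, 0.0155 and 0.0243). Of 7 tested genes of Fat, Dachs and Hippo 1 was higher and 3, app included, were lower, with a median of -0.01. ex, an upstream activator of Hippo signalling, fell by 1.19 and hpo, the kinase itself, fell by 0.49, whereas sav, its scaffold, had a log2 fold change of 0.60 (edgeR adjusted p = 0.00332, 0.027 and 0.0315). Only 5 of the 30 dpr and DIP genes passed the filter on low counts, with a median of -1.34, and dpr6 was the 1 called.

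Isoform shares did not overlap for 13.2% of the 1993 genes, and the lists are given beside that share with the members that were chosen for this difference counted in. Of the genes with 2 transcripts, 3 of 10 on the autophagosome list (Epg5 among them), 2 of 4 on the intraflagellar transport list (Oseg1 among them) and 1 of 6 on the peroxisome list (Pex3 itself) did not overlap. None did of 6 on the Notch list, of 3 on the Fat, Dachs and Hippo list, of 1 on the m6A list and of 1 on the dpr and DIP list. With so few genes per list nothing particular to a list is read from these counts.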

How the data were processed

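Per the labels, RNA from 6 pools of unfertilized eggs was sequenced as directional libraries, and the submitters' processing notes name Salmon 0.8.2 and the genome build dm6. The authors deposited 1 gene table per library with Length, EffectiveLength, TPM and estimated counts (NumReads), per the file headers; the sources used here do not say how transcripts were summed to genes. Estimated counts were rounded and tested with edgeR 4.0.16 (TMM, filterByExpr at 10 counts, quasi-likelihood; R 4.3.3), which kept 7539 of 13943 genes. TPM were used as deposited, and tested only as an alternative with limma 3.58.1 on log2(TPM + a pseudocount of 1 or 0.1), where fold changes of low genes are understated. DESeq2 1.42.0 was another alternative. The biological replicates are taken as separate collections. The differences between them, of whatever origin, set every p-value, and they were uneven. Between the counts of 2 libraries, the chi-square per degree of freedom was 29.4 for MEK F53S replicates 1 and 3. It was 134 and 118 for the pairs with MEK F53S replicate 2. For wild-type MEK it was 46.8 for replicates 2 and 3, and 164 and 156 for the pairs with replicate 1. The origin of this spread was not tested.

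Transcript lengths and positions came from the Ensembl BDGP6 annotation, which matched 13831 of the 13943 gene identifiers and has the coordinates of dm6. The implied effective length is NumReads divided by TPM and by a constant per library, set on genes with 1 transcript and at least 50 reads; lengths were called separate where the groups' gap exceeded 0.01% of the wild-type MEK mean. The share calculation was tried on tables simulated without noise from the same relation, for 500 genes whose transcripts differed by at least 10 bases. The right transcript was found for 100% and the largest error was 0.0005 points, which checks the arithmetic and not the relation. CG5455 and Epg5, with transcripts 8 and 3 bases apart, lay outside this range. The members and lists were chosen with earlier results of these data known. Besides the 10 genes, the text names from each list up to 4 called genes with the smallest p; 1 result each of the peroxisome and splicing lists is not reported here. No genome sequence was used here.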

Additional observations from a re-analysis of the deposited data

How the results depend on the processing

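The shares of the 5 genes with 2 transcripts moved by less than the spread between replicates when they were taken from the annotated lengths or when any library was left out. The alternatives with implied or rescaled lengths, and all those on shares, were chosen after seeing the data. Offsets made of the deposited lengths carry the factor described above: with Length and EffectiveLength as offsets 3 and 3 of the 10 genes were called lower (heph and kuz lost in both; with EffectiveLength brwl was lost too and nito, at -0.55 with edgeR adjusted p = 0.0169, gained), and the log2 fold changes turned to -0.51 and -0.58 for Epg5, 0.45 and 0.56 for Oseg1 and 0.12 and 0.18 for Pex3. On TPM with pseudocounts of 1 and 0.1, Oseg1 was at 0.059 and 0.061, Pex3 at 0.20 and 0.20, and 572 and 562 genes were called lower; with implied lengths Pex3 was at 0.055. The log2 ratio of Length reversed on the rescaled scale for CG5455 (0.0039) and kuz (0.083). Groups did not overlap for 5074 genes on EffectiveLength and for 399 at 1.1-fold.

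Leaving out 1 library gave 424 to 1304 genes called higher and 506 to 1310 lower, 3 to 5 of the 10 genes called lower, 1133 to 1430 genes with separate lengths, and 365 to 490 genes with separate shares; the log2 fold change ranged from -0.058 to 0.43 for Epg5, from -0.21 to 0.062 for Pex3 and from -0.15 to 0.051 for nito, the sign turning without MEK F53S replicate 2, wild-type MEK replicate 3 and MEK F53S replicate 1 in that order. With the replicate block 744 genes were called higher and 742 lower. Of the 10 genes 3 were then called lower, kuz (edgeR adjusted p = 0.0513) and app (0.0511) missing the threshold. The numbers do not pair the libraries, since same-numbered ones correlated at -0.198, -0.162 and 0.266 and not every library correlated best with its own number. The highest correlation between the groups was 0.327, for MEK F53S replicate 2 with wild-type MEK replicate 1, and its origin was not tested. Without a filter 1022 genes were called higher, and with DESeq2 1161.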
